A study of Rattus norvegicus with 24 samples.

Results

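The libraries described here compare early nicotine (NIC) with early saline (SAL) injections in the nucleus accumbens core (NAc core) of rats, across all tested genes. They were chosen by their labels as the 8 NAc core libraries of a series of 24, 4 from NIC-injected rats (numbers 1, 2, 3 and 4) and 4 from SAL-injected rats (numbers 11, 13, 15 and 16). All were male F1 offspring of Brown Norway (BN) and Fischer-344 (F344), both inbred, and each rat gave 1 library. Rats 1, 2, 11 and 15 belonged to cross A, in which the father was F344. Rats 3, 4, 13 and 16 belonged to cross B, in which the mother was F344. NIC was given at 0.4 mg/kg intraperitoneally, and SAL at 1.0 ml/kg, once a day on days 1 to 4. By the labels, rats of both injections later had intravenous NIC at 30 µg/kg per infusion, 10 infusions a day on 6 days, and tissue was taken on day 15. The labels also mention injected rats without intravenous NIC and do not mark it per library. The study's methods give intravenous NIC to males with a catheter and also describe a control group without catheter or NIC. For its transcriptome data of self-administration, the study states that every rat had 10 infusions of NIC a session. The early injection of each library is taken from its label. The ages of the rats are not in the labels.

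Preparation batch followed the injection. Rats 1 and 2 were prepared in batch E, rats 3 and 4 in batch F, and all 4 SAL rats in batch G. No NAc core batch held both injections, so no within-batch value exists, and the injection and the preparation batch cannot be told apart in any NAc core result. The NAc shell libraries of these rats had the same batches. In VTA the libraries of rats 2 (NIC) and 16 (SAL) were prepared in batch L, with 1 rat of each injection, and the others as in NAc core.

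The NAc core is a part of the ventral striatum that takes part in learned, reward-directed action. Most of its neurons are GABA-releasing projection neurons that receive dopamine from the ventral tegmental area (VTA) and glutamate from the cortex, amygdala and hippocampus. Nicotine opens nicotinic acetylcholine receptors on dopamine neurons and on their terminals, which raises dopamine release in the accumbens, and repeated injections are known to sensitize rats to later exposure. The comparison asks whether an early course of NIC left a difference in the NAc core transcriptome on day 15.

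Total estimated counts in NAc core ranged from 17563458 to 20480697 per library and did not separate the injections (18803400 in NIC and 19209200 in SAL on average; two-sided exact permutation test, p = 0.657, n = 4 each, smallest possible p = 0.0286). Of 17323 gene IDs, 16289 were tested, those with more than 10 normalized counts in 3 or more of the 24 libraries. The table names genes by Ensembl ID, and 0 of the IDs matched the RefSeq table used for names. Names from other sources were not used here, so genes appear by ID, gene function is not described, and the dissected tissue was not checked against marker genes. On the first principal component of all 24 libraries, which held 53.8% of the variance of the 500 most variable genes, NAc core lay between -28.3 and -21.7, overlapping NAc shell (-23.5 to -14.8) and apart from VTA (18.9 to 54.0). Within each rat NAc core lay below NAc shell on this component, as in rat 3 (-26.1 against -23.5) and rat 11 (-21.7 against -14.8). In whole tissue, fewer cells of a type and less RNA per cell cannot be told apart.

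The injection was not a main axis of variation in NAc core. Among the 8 libraries the first 4 components of the 500 most variable genes held 18.2%, 17.7%, 16.1% and 13.7% of the variance. On the first, NIC libraries ranged from -16.7 to 13.5 and SAL libraries from -21.1 to 23.6. None of the 4 components, nor the total count, the number of genes with a count, or the share of the most abundant gene, differed between injections beyond the spread between rats (two-sided exact permutation tests, n = 4 each, p from 0.400 to 0.857, adjusted over the 7 measures 0.767 to 0.857).

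Very few genes differed between early NIC and early SAL. With edgeR's quasi-likelihood test and the cross as a covariate, 1 of 16289 genes (0.00614%) had an adjusted p (Benjamini-Hochberg) under 0.05, and it was lower in NIC rats. The next smallest adjusted p was 0.700. At an unadjusted p under 0.05, the level the study used for its own gene lists, 1156 genes (7.1%) differed, 494 higher (3.03%) and 662 lower (4.06%) in NIC rats, where 814 would be expected by chance. Without rat 1 this count was 655, and in a fit over all 24 libraries it was 744. The median absolute log2 fold change of these genes was 0.31, and 90.9% of them stayed under 2-fold.

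The data limited the size of change for most genes more than they measured it. Over all tested genes the median standard error (SE) of the log2 fold change was 0.13. The 95% confidence interval lay wholly within a 2-fold change in either direction for 80.4% of genes, and within a 1.5-fold change for 65.7%. Precision followed the level of expression. When genes were divided into 4 classes of equal size by mean expression in counts per 1000000 (CPM), the interval lay within 2-fold for 25.9% of the lowest class (up to 3.49 CPM), 96.4% of the second (up to 18.9 CPM), 99.5% of the third (up to 60.6 CPM) and 99.8% of the highest. For most genes of the lowest class the interval thus did not exclude a 2-fold difference.

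The gene that passed was ENSRNOG00000059412. It held 0 counts in all 4 NIC libraries. Among the SAL rats it held 208 counts in rat 11 and 207 in rat 15, both of cross A, and 0 in rats 13 and 16, both of cross B. The injection groups thus overlapped at 0, and the whole difference came from the cross A rats. On average SAL had 5.16 ± 5.96 CPM (SD, n = 4), at least 32.0-fold higher than 3 counts in each NIC library would give (edgeR adjusted p = 0.0227). The call was lost without rat 1, 2, 11 or 15 (adjusted p from 0.170 to 0.380) and with DESeq2 (adjusted p = 0.818). The limits given by counts cover counting error only.

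A second ID held the counts that this gene lacked. ENSRNOG00000034040, named after its values were seen, held 0 counts in rats 11 and 15 and 173, 222, 186, 115, 141 and 156 counts in rats 1, 2, 3, 4, 13 and 16. In each of the 24 libraries of the 3 regions exactly 1 of both IDs had counts, ENSRNOG00000059412 in 11 libraries and ENSRNOG00000034040 in 13. Their sum ranged only from 115 to 231 counts over all 24 libraries. Among 176 IDs with at least 3 libraries at 0 and a maximum of at least 50 counts, which form 15400 pairs, this was the single pair that excluded each other in every library. Within 1 rat the ID that held the counts changed between regions, as in rat 2, where ENSRNOG00000034040 had 222 counts in NAc core and 206 in VTA and ENSRNOG00000059412 had 231 in NAc shell. Summed, the pair had 9.42 ± 2.62 CPM in NIC and 9.15 ± 1.37 CPM in SAL rats of the NAc core (SD, n = 4 each). The log2 fold change of the sum was 0.03 ± 0.18 (SE). With the pair as 1 feature, edgeR called 0 genes at an adjusted p under 0.05, the smallest adjusted p was 0.701, and 1157 genes had an unadjusted p under 0.05; DESeq2, run on the separate IDs, called 3. Salmon, which made these counts, assigns reads that fit several transcripts by estimation. The sequences of the IDs were not compared here.

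**Figure D1:**
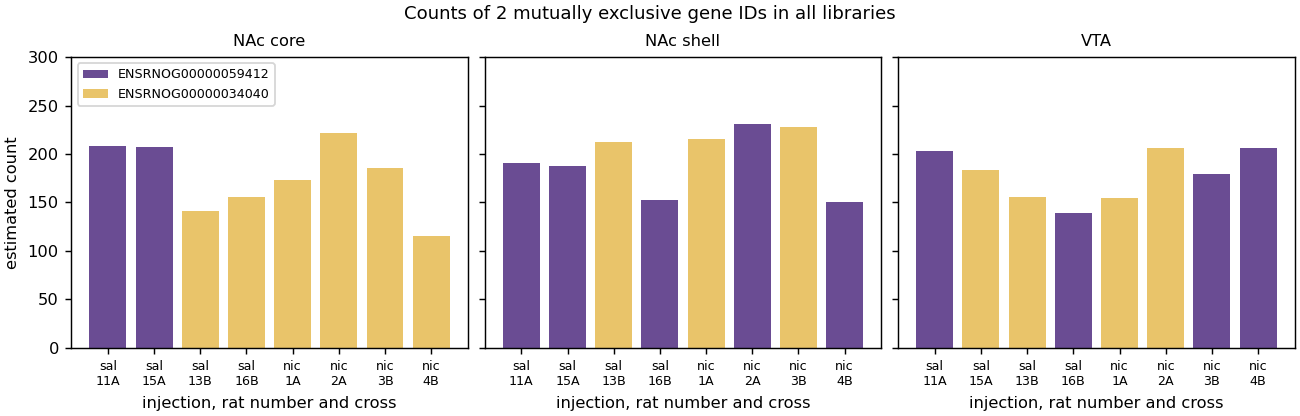
Estimated counts of ENSRNOG00000059412 (purple) and ENSRNOG00000034040 (yellow) in each of the 24 libraries, with 1 bar per rat, labelled by injection, rat number and cross, in NAc core, NAc shell and VTA. Every bar has a single colour and lies between 115 and 231 counts, and in NAc core only rats 11 and 15 are purple.

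IDs that moved between 0 and a sizeable count were few. In NAc core 50 tested genes had 0 counts in at least 1 library and at least 100 in another. Of these, 2 had 0 in all NIC libraries and 1 had 0 in all SAL libraries. An unadjusted p under 0.05 was held by 5 of the 50, against 1156 (7.1%) of all tested genes. Over the 15570 genes without a 0 in any of the 8 libraries, edgeR called 0 at an adjusted p under 0.05, and 1116 had an unadjusted p under 0.05. DESeq2 called 3 genes over all tested IDs (0.0184%). The one with the smallest adjusted p, ENSRNOG00000028302 (4.35e-09, named after its values were seen), rested on rat 3 with 1461 counts and rat 2 with 119, while rats 1 and 4 and all 4 SAL rats held 0. The other genes called by DESeq2 were ENSRNOG00000007705 and ENSRNOG00000037897, which held counts in every library.

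No gene with counts in every library passed edgeR's adjusted threshold. In 606 genes (3.72%) the groups did not overlap, with 324 higher (1.99%) and 282 lower (1.73%). From these the naming rule took, in each direction, the 10 of smallest p with a mean of at least 1 CPM and the same direction in both crosses. ENSRNOG00000037897 was abundant and higher after early NIC. It had 530.5, 605.0, 569.8 and 522.8 CPM in NIC rats 1, 2, 3 and 4, and 397.5, 417.9, 412.7 and 484.0 CPM in SAL rats 11, 13, 15 and 16. The lowest NIC rat lay above the highest SAL rat, rat 16, and both crosses showed the difference. Its log2 fold change was 0.38 ± 0.07 (SE, edgeR adjusted p = 0.700; DESeq2 adjusted p = 0.00961).

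ENSRNOG00000043348 was higher in NIC rats as well, by a small and even amount. NIC rats had 197.5, 197.9, 202.3 and 198.5 CPM (rats 1, 2, 3 and 4), and SAL rats 162.8, 178.4, 166.0 and 172.1 CPM (rats 11, 13, 15 and 16). The NIC libraries spread over less than 5 CPM, and the SAL libraries all lay below them. The log2 fold change was 0.23 ± 0.05 (SE, edgeR adjusted p = 0.700, DESeq2 adjusted p = 0.136).

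ENSRNOG00000007705 was lower after early NIC. It had 2.17, 3.41, 2.75 and 2.49 CPM in NIC rats 1, 2, 3 and 4, from 37 to 65 counts each, and 8.04, 4.53, 8.33 and 4.55 CPM in SAL rats 11, 13, 15 and 16, from 83 to 167 counts. The SAL rats of cross A stood highest, those of cross B lay between them and the NIC rats, and the groups did not overlap. The log2 fold change was -1.18 ± 0.22 (SE, edgeR adjusted p = 0.700; DESeq2 adjusted p = 0.00961). It was -1.56 in cross A and -0.79 in cross B.

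**Figure D2:**
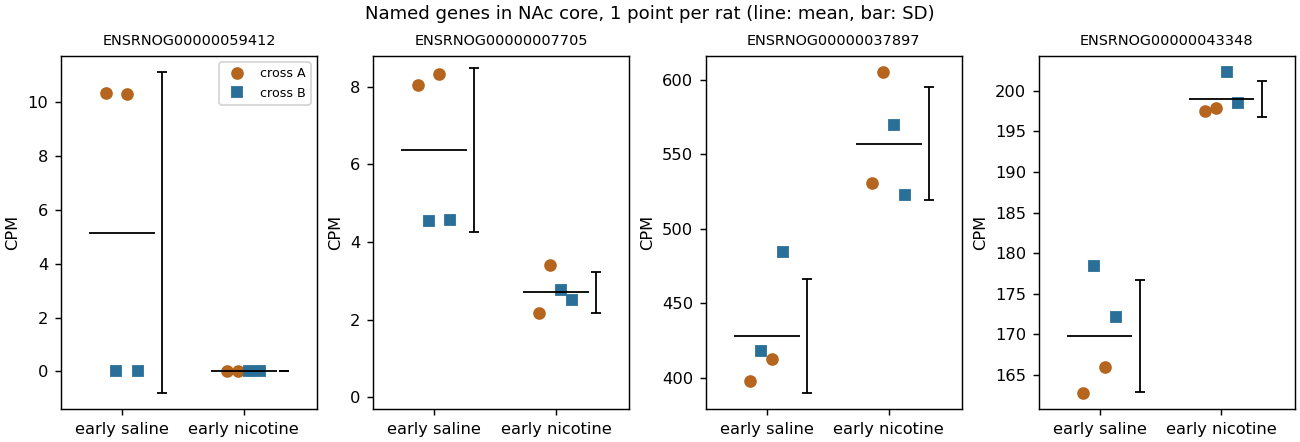
Expression (CPM) of 4 genes in NAc core, with 1 point per rat for early SAL and early NIC, brown circles for cross A and blue squares for cross B; lines are means and bars are SDs (n = 4), and the axes of the last 2 panels do not start at 0. ENSRNOG00000059412 is above 0 in 2 SAL rats of cross A alone, and the groups do not overlap for ENSRNOG00000007705, ENSRNOG00000037897 and ENSRNOG00000043348.

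The remaining genes of the rule resembled these in size. The 10 higher genes had log2 fold changes from 0.23 to 1.05 (median 0.35), with unadjusted p from 0.000261 to 0.00276 and mean expression from 3.24 to 492.5 CPM. The 10 lower genes ranged from -1.18 to -0.29 (median -0.49), with unadjusted p from 0.000200 to 0.00206 and mean expression from 2.05 to 49.3 CPM. The change exceeded 2-fold in 1 of the higher and 2 of the lower genes. All 20 had an edgeR adjusted p of 0.700. They were chosen by these values, which are therefore a description.

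Direction varied with the level of expression, a division made after the values were seen. Among genes with an unadjusted p under 0.05, 61 of 193 were higher in NIC rats in the lowest class of expression (31.6%), 60 of 288 in the second (20.8%), 142 of 338 in the third (42.0%) and 231 of 337 in the highest (68.5%). The second class thus leaned to lower and the highest to higher expression after early NIC. With median-ratio size factors the 4 shares were 31.1%, 19.7%, 41.3% and 66.5%. Over all genes of a class, called or not, the median log2 fold change was only -0.08, -0.04, 0.01 and 0.03. Leaving out any 1 rat kept the second class between 20.3% and 25.6% higher and the highest between 52.0% (without rat 13) and 71.6% (without rat 2). The shares of the second and the highest class were 20.5% and 42.8% in cross A alone and 33.1% and 75.0% in cross B alone. Over all genes of the highest class, called or not, 59.1% had a log2 fold change above 0 in cross A (median 0.03) and 57.3% in cross B (median 0.02).

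The shift was uneven between rats. In the highest class, the median deviation of a library's log2 CPM from the mean of the 8 was 0.05 in rat 1, 0.01 in rats 2 and 4 and -0.0046 in rat 3, against -0.02 in rats 11 and 13, -0.0092 in rat 15 and -0.0040 in rat 16. In the lowest class it was -0.08, 0.0016, 0.05 and -0.0033 in rats 1, 2, 3 and 4, and 0.09, 0.09, 0.07 and -0.00017 in rats 11, 13, 15 and 16. Rat 1 stood lowest in the lowest class and highest in the highest, and the groups overlapped in both, with rats 2 and 3 above rat 16 in the lowest class and rat 3 below rat 16 in the highest. Rats 1 and 2 were of batch E, rats 3 and 4 of batch F and the SAL rats of batch G, so that batch also divided the NIC rats by cross.

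**Figure D3:**
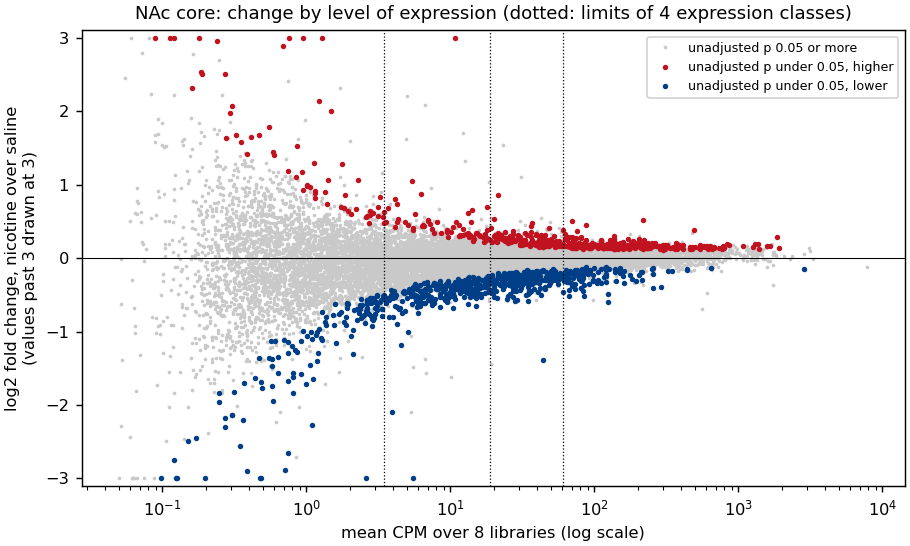
Log2 fold change of early NIC over early SAL in NAc core (vertical axis, values past 3 drawn at 3) against mean expression in CPM (horizontal log axis), with 1 point per gene above 0.05 CPM; dotted lines are the class limits, and red and blue mark genes of unadjusted p under 0.05. Blue points prevail in the second class, where 228 of 288 were lower, and red points in the highest, where 231 of 337 were higher.

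The crosses were compared to ask whether the early injection had the same effect in both, since rats of cross A and cross B share no library. In the study, rats of cross A were inclined to self-administer NIC and those of cross B were not, and passive infusions made up the number. Cross and self-administration thus cannot be told apart. With 2 NIC against 2 SAL rats, 1207 genes (7.41%) had an unadjusted p under 0.05 in cross A, 353 higher (2.17%) and 854 lower (5.24%), and 814 (5%) in cross B, 460 higher (2.82%) and 354 lower (2.17%). Of the 1207 genes of cross A, 674 (55.8%) changed in the same direction in cross B, where 52.4% of all tested genes had the same direction in both. Of the 814 genes of cross B, 485 (59.6%) had the same direction in cross A. Across the 14194 genes with a mean of at least 1 CPM, Pearson's r of the log2 fold changes was 0.06 and Spearman's rho 0.08, as a description over genes that share libraries. Only 64 genes had an unadjusted p under 0.05 in both, which is 5.30% of the list of cross A and 7.86% of that of cross B, and 36 of the 64 had the same direction, 11 higher and 25 lower. The estimated fold changes of the crosses were thus nearly unrelated. The median SE was 0.19 in cross A and 0.15 in cross B, above the median absolute log2 fold change of 0.11 over both crosses. A low correlation therefore cannot show whether the effects differed. All 4 SAL rats shared batch G, while the NIC rats of cross A and cross B came from different batches.

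Absolute changes were more often larger in cross A, over all genes as well as among those with an unadjusted p under 0.05. The share was 59.4% over all 16289 tested genes, 81.4% (539) of the 662 genes lower in NIC rats over both crosses and 64.0% (316) of the 494 higher genes. The cross A estimates were also less precise, with a median SE of 0.19 against 0.15 in cross B. The 10 lower genes of the naming rule had a median log2 fold change of -0.60 in cross A and -0.35 in cross B, and the 10 higher genes of 0.42 and 0.26. In cross A alone, edgeR called 3 genes (0.0184%) at an adjusted p under 0.05, named after their values were seen. They were the exclusive pair described above and ENSRNOG00000056213, with 732 and 1165 counts in NIC rats 1 and 2 and 78 and 61 in SAL rats 11 and 15, but 10 and 139 in NIC rats 3 and 4 of cross B against 247 and 291 in SAL rats 13 and 16. In NAc core that gene was thus higher after NIC in cross A and lower in cross B. In NAc shell rats 1, 2, 11 and 15 held 0, 63, 52 and 51 counts of it. Rats 3, 4, 13 and 16 held 243, 147, 1527 and 206 there. In VTA the counts were 98, 243, 0 and 18 in cross A and 5, 0, 100 and 211 in cross B, in the same order of rats. In cross B alone edgeR called 1 (0.00614%), ENSRNOG00000049132. It held 214 and 369 counts in NIC rats 3 and 4 and 0 in SAL rats 13 and 16. All cross A rats held counts of it in NAc core, from 70 to 460. In NAc shell rats 3, 4, 13 and 16 held 79, 0, 446 and 0 counts of it, and in VTA 0, 394, 0 and 0.

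**Figure D4:**
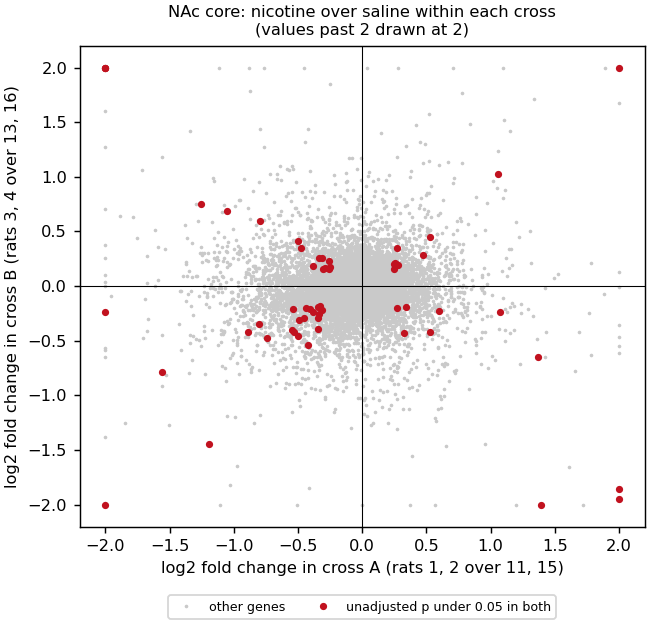
Log2 fold change of early NIC over early SAL in cross A (horizontal axis) and cross B (vertical axis) of the NAc core, with 1 point per gene of at least 1 CPM and values past 2 drawn at 2. Red marks the 59 of these genes with an unadjusted p under 0.05 in both crosses, and the cloud shows little tilt (Pearson's r 0.06).

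Dependence of the injection difference on the cross was tested as an interaction. At an adjusted p under 0.05 edgeR called 1 of 16289 genes (0.00614%), ENSRNOG00000034040, whose counts are given above, and 959 genes (5.89%) had an unadjusted p under 0.05. ENSRNOG00000059412, the other ID of the exclusive pair, was not called (edgeR interaction test, unadjusted p = 0.9996). The call thus rested on 1 ID of the pair. With 2 rats a cell, the number called at the adjusted threshold ranged from 1 to 12 when single rats were left out, with 12 without rat 15 and 6 without rat 2. DESeq2 called 17.

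The same rats gave libraries of the NAc shell and the VTA, which the choice of genes in NAc core did not use. In NAc shell 0 genes had an adjusted p under 0.05 by edgeR for early NIC against early SAL, and 473 (2.9%) had an unadjusted p under 0.05. In VTA there were 0 and 244 (1.5%), and the latter was 607 without rat 1 and 385 without rat 16. The VTA library of rat 2, of batch L, stood apart at 18.9 on the first component, where the remaining VTA libraries reached 45.9 to 54.0. Without it VTA gave 0 and 495 (3.04%). DESeq2 was not run for these regions. None of the 20 genes of the naming rule had an unadjusted p under 0.05 in NAc shell or VTA. Of the 10 genes higher in NAc core, 4 were higher in NAc shell, with a median log2 fold change of -0.03, and of the 10 lower genes 8 were lower, with a median of -0.03. In VTA 7 of the 10 higher and 9 of the 10 lower genes had the NAc core direction, with medians of 0.18 and -0.15, and without library 2 there were 8 and 7, with medians of 0.16 and -0.05. Over all tested genes the direction of NAc core was shared by 53.3% in NAc shell, 56.7% in VTA and 49.97% in VTA without library 2.

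ENSRNOG00000007705 had 4.85 ± 1.77 CPM in NIC and 4.84 ± 1.56 CPM in SAL rats of the NAc shell (SD, n = 4 each), so that the groups did not differ beyond their spread there. Its log2 fold change was -0.0024 ± 0.26 (SE) in NAc shell, against -1.18 in NAc core. ENSRNOG00000037897 had 490.6 ± 59.9 and 468.2 ± 68.1 CPM in NAc shell, and ENSRNOG00000043348 had 178.0 ± 10.2 and 184.7 ± 11.1 CPM, in NIC and SAL rats (SD, n = 4 each). Neither separated the groups in NAc shell. In VTA, ENSRNOG00000007705 had 24.3 ± 8.92 CPM in NIC and 31.6 ± 11.8 CPM in SAL rats (SD, n = 4 each), with a log2 fold change of -0.41 ± 0.33 (SE), and -0.23 ± 0.34 without library 2. ENSRNOG00000037897 had 323.2 ± 45.5 and 284.4 ± 62.3 CPM there, with a log2 fold change of 0.19 ± 0.18, and 0.24 ± 0.19 without library 2. ENSRNOG00000043348 had 138.5 ± 18.5 and 138.9 ± 13.7 CPM. The VTA means of the first and second of these genes differed in the NAc core direction, each by less than the SD of either group.

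**Figure D5:**
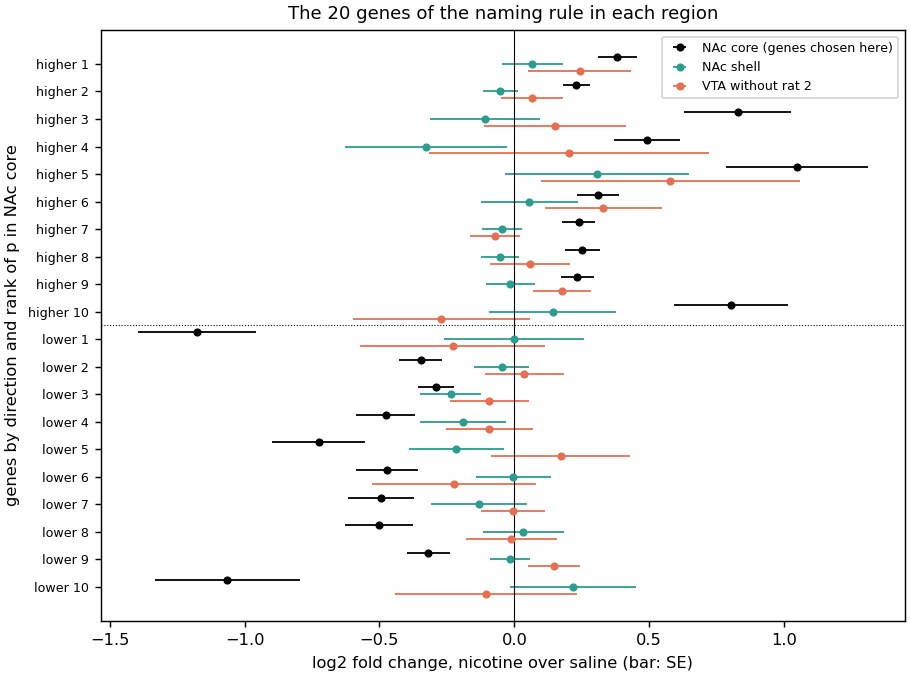
Log2 fold change of early NIC over early SAL (points, bars are SEs) for the 10 higher and 10 lower genes of the naming rule, in NAc core (black, where they were chosen), NAc shell (green) and VTA without library 2 (orange). The black points lie between 0.23 and 1.05 or between -1.18 and -0.29, and the medians in NAc shell are -0.03 for both directions.

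Whether the injection difference was particular to the NAc core was tested over all genes as an interaction of injection and region. The main fit took libraries of the same rat as independent. Between NAc core and NAc shell, edgeR called 0 genes at an adjusted p under 0.05 (smallest adjusted p = 0.974), with 586 (3.6%) at an unadjusted p under 0.05. The latter count was 373 without rat 13 and 973 without rat 16. With the rat as a block edgeR called 1 (0.00614%), ENSRNOG00000046051, named after its values were seen (adjusted p = 0.0165). That ID held 224, 54 and 577 counts in SAL rats 11, 15 and 16 and 0 in the other 5 NAc core libraries, and in NAc shell 60, 322 and 392 counts in rats 2, 4 and 16 and 0 in the other 5. Between NAc core and VTA edgeR called 0, with 386 (2.37%) at an unadjusted p under 0.05, and 0 with the rat as a block. The unadjusted count was 227 without rat 13, 629 without rat 3 and 613 without rat 15. The injection difference was therefore not shown to be particular to the NAc core for any gene that held counts in every library.

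Of the 1156 genes with an unadjusted p under 0.05 in NAc core, 737 (63.8%) had the same direction in NAc shell, where 53.3% of all tested genes did. In VTA 816 (70.6%) had the same direction, against 56.7% of all genes, but without library 2 the values were 646 (55.9%) and 49.97%. Genes with an unadjusted p under 0.05 in both NAc regions numbered 48, which is 4.15% of the NAc core list and 10.1% of the NAc shell list, and 42 of them had the same direction. Over all tested genes the shares with an unadjusted p under 0.05 were 7.1% in NAc core and 2.9% in NAc shell. For NAc core and VTA the number was 10, which is 0.865% of the NAc core list and 4.10% of the VTA list, with 6 in the same direction, against 1.5% of all genes in VTA. Without library 2 it was 16, which is 1.38% and 3.23% of the lists, with 6 in the same direction, against 3.04% of all genes. These libraries came from the same rats, and the NAc libraries of a rat also shared a preparation batch. The share of higher genes by class of NAc core expression ran the other way in NAc shell, from 68.2% in the lowest class to 37.0% in the highest. In VTA it went from 66.0% to 42.2%, and without library 2 from 61.1% to 28.1%. Over all genes of a class, the median log2 fold change in VTA was -0.02 in the lowest and 0.01 in the highest class, and without library 2 it was 0.01 and -0.02.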

How the data were processed

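RNA-seq of NAc core, NAc shell and VTA was deposited as 1 table of estimated counts per gene. Per the labels and the study's methods, the authors trimmed reads with fastp 0.20.0, quantified them with Salmon 0.12.0 against Rnor version 6 and summed transcripts to genes with tximport; the estimated counts were deposited as whole numbers, without normalization. The annotation release is not given in the sources used here. Titles identified the sample of each of the 24 columns (0 left over). The RefSeq table matched 0 of 17323 IDs, and names from other sources were not used. The 32 gene lists drawn up for cell types and pathways were therefore not tested, and no sequence is shown. The groups, named genes and tests were chosen with earlier results of these data known.

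Genes with a median-ratio normalized count over 10 in at least 3 of 24 libraries were kept (16289 genes, 99.99% of NAc core counts). edgeR 4.0.16 under R 4.3.3 (TMM, quasi-likelihood F test, two-sided, Benjamini-Hochberg adjustment) took the 8 libraries of each region, with cross and injection as terms; the study used DESeq2, run here as version 1.42.0. An SE is the fold change divided by the square root of F. CPM used TMM-scaled totals, and components log2 CPM with a prior count of 2. Named genes were those passing the adjusted threshold, then in each direction the 10 of smallest p among genes of at least 1 CPM with non-overlapping groups and the same direction in both crosses; the first of these are given by ID. Over the 12 NAc core pairs within groups a chi-square statistic was 6.63 to 22.3 times its degrees of freedom, so none of these pairs agreed within sampling noise. The labels give 1 rat the same number in each region, which pairs its libraries; deviations from group means had correlations of -0.03 to 0.23 for NAc core with NAc shell and of -0.10 to 0.21 for NAc core with VTA. Fits were tested on simulated data. The p-values of fits within 1 region measure the spread between these rats. The main fits of injection and region had no term for the rat and 1 cross term for both regions. They took libraries of the same rat as independent, so their p-values do not measure that spread. Alternatives were other size factors, filters, tests and covariates, single crosses and leaving out rats.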

Additional observations from a re-analysis of the deposited data

Results flagged for a closer look

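ENSRNOG00000028302 had 1 NIC library of NAc core far from the other 3, rat 3 at 80.5 CPM against 6.25, 0 and 0 CPM. Of 26 groups of 4 libraries compared by Dixon's ratio it was the only one with a library apart. The gene was compared because DESeq2 called it, and that call rested largely on the same library. Groups with all values at 0 could not be flagged. The 1.30 expected by chance over 26 groups is therefore only nominal. For ENSRNOG00000034040 the injection difference differed between the crosses by the interaction test, with a fitted log2 interaction of 10.7 (edgeR adjusted p = 0.00697). This size depends on the prior count, because both SAL libraries of cross A held 0. By the same test its exclusive partner ENSRNOG00000059412 was not called (fitted log2 interaction -10.6, edgeR unadjusted p = 0.9996). The summed pair was not tested for the interaction.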

How the results depend on the processing

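The count of 1 gene at the adjusted threshold in NAc core stayed 1 with median-ratio size factors, without a filter and in cross B alone (there another gene). It was 0 without the cross covariate, with edgeR's filterByExpr, in 1 fit over all 24 libraries and, in alternatives chosen after seeing the data, over genes without a 0 and with the exclusive pair summed; it was 3 with DESeq2 and 3 in cross A alone, and 0 to 2 without single replicates. The unadjusted count of 1156 was 744 in the fit over all 24 libraries and 655 to 1380 without single replicates. Over 17 alternatives each, the edgeR or DESeq2 adjusted p ranged from 0.00961 to 1 for ENSRNOG00000007705 and ENSRNOG00000037897 and from 0.136 to 1 for ENSRNOG00000043348; the naming rule fixed their direction within crosses and without single rats. That of ENSRNOG00000059412 ranged from 0.00562 to 1 over the 14 that gave a value. The interaction of cross and injection called 17 genes with DESeq2 and 1 to 12 without single replicates, with 636 (without rat 3) to 1647 (without rat 11) at an unadjusted p. The injection in NAc shell called 0 without any single replicate (348 to 707 unadjusted), and in VTA 0 (171 to 607 unadjusted, with 607, 495 and 385 without rats 1, 2 and 16). The interaction of injection and region called 0 without any single rat, with 373 (without rat 13) to 973 (without rat 16) unadjusted for NAc shell and 227 (without rat 13) to 629 (without rat 3) for VTA, and 613 without rat 15. With the rat as a replicate block, NAc shell gave 1 gene and VTA 0, and no other call changed. The causes were not tested. Leaving out 1 rat leaves a cell of cross and injection with 1 library, assumed to vary like the others. Medians of the gene lists were not run, because the RefSeq table matched none of the IDs and names from other sources were not used.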
